A study of Oncorhynchus mykiss with 27 samples.

Results

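Trilostane alone was compared with the untreated control in explants of rainbow trout testis, small pieces of the whole organ kept alive in culture. The comparison holds 12 of the 27 arrays of the series, 6 of explants cultured with trilostane at 10 µg/mL and no gonadotropin (Tri) and 6 of explants cultured with no added substance (Ctrl), chosen by the treatment that the sample labels give. All were cultured for 96 h at 12 °C, and the medium was renewed after 48 h. Of the other arrays, 6 are of explants given follicle-stimulating hormone at 500 ng/mL (Fsh), 6 of explants given the hormone together with trilostane (Fsh+Tri, with trilostane added 1 h earlier), and 3 of testis taken before culture (T0). The fish came from an all-male population, and the testis pieces of many fish were mixed into a single pool from which every well was filled. The 6 replicates of a group are therefore wells and not fish, and each p-value covers the spread from well to well alone.

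Trilostane inhibits 3 beta-hydroxysteroid dehydrogenase, the enzyme that turns Δ5 steroids such as pregnenolone into Δ4 steroids. Testosterone, 11-ketotestosterone (the main androgen of male teleosts) and the maturation-inducing progestin of trout all lie downstream of this step. In the testis it takes place mainly in Leydig cells, and androgens act from there on Sertoli cells and indirectly on germ cells. The comparison asks which transcripts differ when the inhibitor is given and no gonadotropin is added. Steroid levels in the medium are not among the data analysed here. How far basal steroid production differed between Tri and Ctrl at 96 h is therefore not shown by these values. The paper measured the main androgen of male teleosts in the medium of these cultures. It reports that trilostane lowered basal production of this androgen before the medium was renewed. After the renewal, basal production was very low, and the paper saw no further effect of trilostane on it. Whether the differences between Tri and Ctrl follow steroid levels was not tested.

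The arrays were nylon membranes carrying spotted cDNA clones. Radiolabelled cDNA made from explant RNA was hybridized to them, and spot brightness follows the steady-state level of a transcript. Values are the log2 values that the authors deposited, already quantile normalized, and a difference of 1 on this scale is a 2-fold change. Of 9024 clones, 4540 were tested, namely those measured on 80% or more of the 24 arrays of cultured explants whose mean reached 6.42, the median of the experiment, under 1 treatment or more. Gene names come from a list of clones that the study chose for a response to Fsh on arrays that include Ctrl and Tri, and every clone of the list was tested. The names of other clones are not analysed here, apart from that of the reference gene *rps15*. In explants, fewer cells of a type and less RNA per cell cannot be told apart.

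Ctrl replicate 4 stood apart from the other arrays. Its deviations from the mean of its group had an SD of 0.50 over all clones tested, against 0.25 to 0.35 for the other Ctrl arrays and 0.23 to 0.31 for the Tri arrays. The labels place all 6 Ctrl arrays at stage I-II of testis maturation. Of the 6 Tri arrays they place 4 at stage I-II and 2 at stage III. Stage III is also the label of 3 of the 6 Fsh arrays, 4 of the 6 Fsh+Tri arrays and T0 replicates 1 and 2. The study's methods describe explants of both stages within every well, so what the stage label of an array stands for is not settled. The image software was of a newer version for 1 Ctrl, 2 Tri, 1 Fsh and 0 Fsh+Tri arrays, and for T0 replicate 1. With the stage as a covariate 21 clones were higher in Tri and 3 lower, and with the software version as a block 20 and 1, against 23 and 3 without these terms. Of the 3 lower without these terms, only 1 kept its call in either setting, so the 3 lower with the stage term are not the same clones.

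Few clones differed between Tri and Ctrl. Different clones can carry the same gene, as both keratin 12 clones below do, so counts of clones are not counts of genes. At an adjusted p under 0.05 (limma over the 24 cultured arrays, Benjamini-Hochberg over the clones tested), 23 clones were higher in Tri, which is 0.507% of those tested, and 3 were lower, which is 0.0661% (26 in all, 0.573%). Those higher rose by 0.70 to 1.95 on the log2 scale, with a median of 0.90, and 9 of them rose at least 2-fold. At an unadjusted p under 0.05 the directions were nearly even, with 209 clones higher (4.60%) and 216 lower (4.76%), 425 in all (9.36%). Over all clones tested the difference had a median of -0.02, a 5th percentile of -0.35 and a 95th percentile of 0.34, and it was above 0 for 46.3%. Without Ctrl replicate 4, 19 clones were higher and 4 were lower, and these include 19 of the 23 and 1 of the 3.

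**Figure D1:**
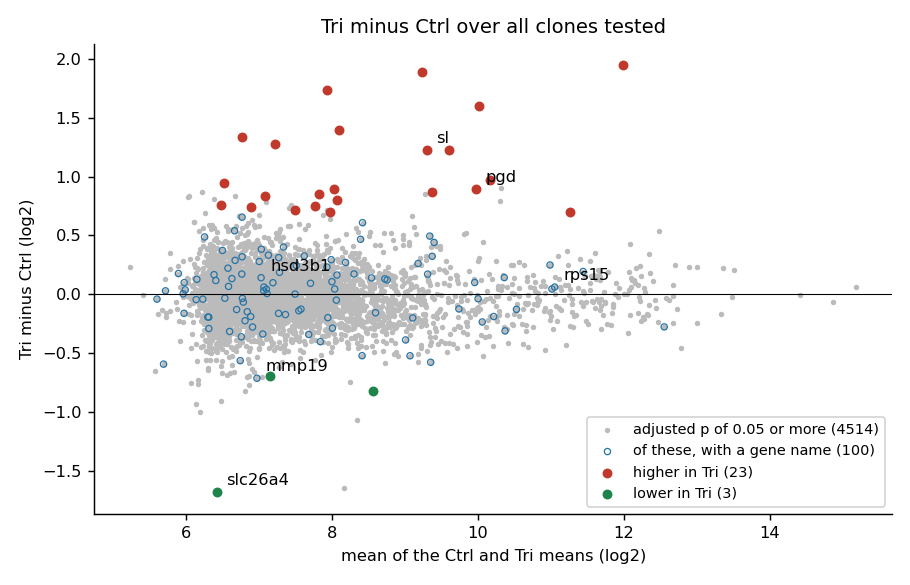
Difference between Tri and Ctrl (log2, vertical) against the mean of the Ctrl and Tri means (log2, horizontal) for each of the 4540 clones tested, with the 23 clones higher in Tri in red, the 3 lower in green and the named clones that missed the threshold as open blue circles. The clones that were higher spread over low and high levels alike, and *slc26a4* lies lowest, at -1.69.

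Of the 26 clones, 3 have a gene name. *sl* encodes somatolactin, a pituitary hormone of the growth hormone and prolactin family found in fish. Its log2 value in Ctrl ranged from 8.38 to 8.96 with a median of 8.64, and in Tri from 9.69 to 10.08 with a median of 9.97. Every Tri array was above every Ctrl array. Somatolactin transcript was thus 2.34-fold higher with trilostane (log2 difference 1.23 ± 0.12 SE, n = 6 against 6, adjusted p = 7.35e-08). The difference stayed between 1.17 and 1.36 in all 26 alternative settings, with an adjusted p of at most 4.64e-05. Before culture *sl* was lower than in any cultured explants of these 2 groups, at 7.30 to 7.79 on the 3 T0 arrays.

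*pgd* encodes 6-phosphogluconate dehydrogenase, an enzyme of the pentose phosphate pathway that yields NADPH, the reductant used in steroid and fatty acid synthesis. Its log2 value in Ctrl ranged from 8.73 to 9.88 with a median of 9.62, and in Tri from 10.04 to 11.06 with a median of 10.25. The groups did not overlap, and the lowest value belonged to Ctrl replicate 4. The transcript was 1.86-fold higher in Tri (log2 difference 0.89 ± 0.18 SE, n = 6 against 6, adjusted p = 0.00954). Without Ctrl replicate 4 the difference was 0.73 (adjusted p = 0.0292). The call was lost when only the 12 Ctrl and Tri arrays were fitted (adjusted p = 0.0755) and when only the arrays of the older image software were (adjusted p = 0.101). On the T0 arrays *pgd* lay at 6.85 to 8.05, below both cultured groups.

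*slc26a4* encodes pendrin, an exchanger of chloride with iodide or bicarbonate in the cell membrane. It fell with trilostane. Its log2 value in Ctrl ranged from 6.83 to 8.11 with a median of 7.04, and in Tri from 5.05 to 6.47 with a median of 5.51. No Tri array reached the lowest Ctrl array. The transcript was 3.22-fold lower in Tri (log2 difference -1.69 ± 0.22 SE, n = 6 against 6, adjusted p = 1.59e-05), and the difference stayed between -1.86 and -1.52 in the 26 alternative settings. The Tri values overlapped those before culture, which were 5.39 to 5.66 on the 3 T0 arrays, whereas all Ctrl values lay above them.

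**Figure D2:**
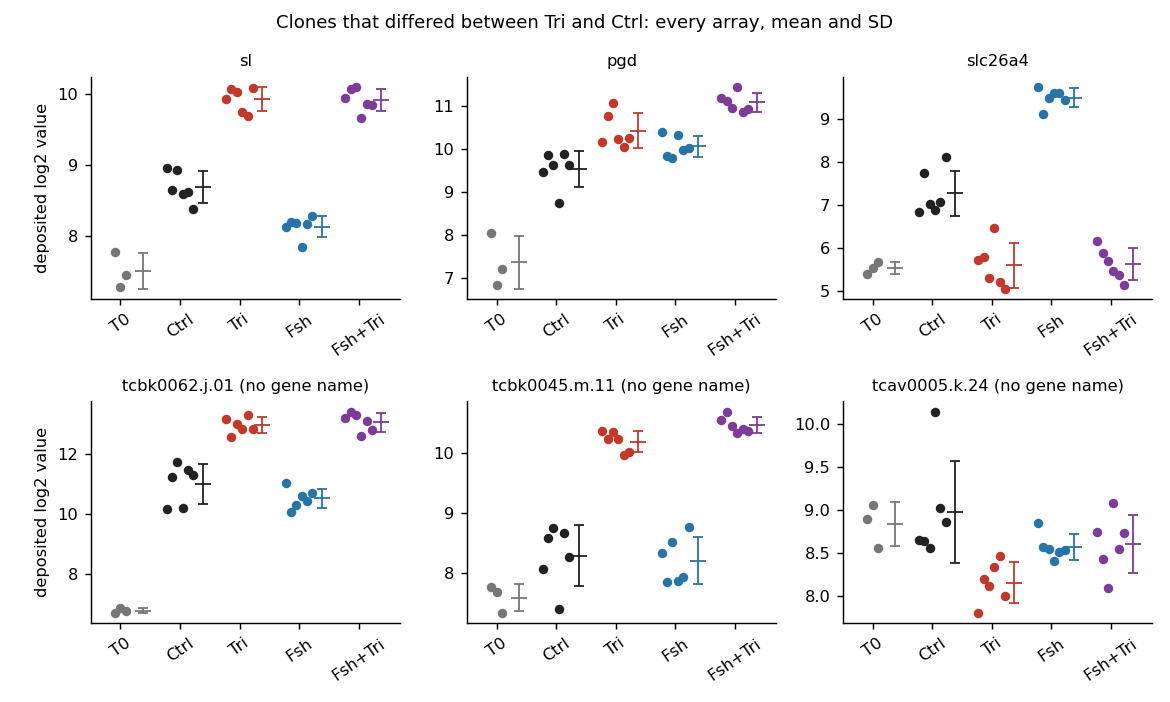
Deposited log2 value (vertical) on every array of T0 (3 arrays) and of Ctrl, Tri, Fsh and Fsh+Tri (6 arrays each) for the named clones *sl*, *pgd* and *slc26a4* and for 3 clones without a gene name, each with the mean and SD of the group beside the points. In all 6 panels no Tri array overlaps a Ctrl array. In the panel of tcav0005.k.24 the Ctrl array at 10.14, replicate 4, lies apart from the others.

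The other 23 clones have no gene name here, and 21 of them were higher. Their differences ranged from 0.70 to 1.95, and 8 of the 21 rose at least 2-fold. The largest change was that of tcbk0062.j.01. Its log2 value in Ctrl ranged from 10.15 to 11.73 with a median of 11.26, and in Tri from 12.57 to 13.30 with a median of 12.92, a 3.85-fold rise (log2 difference 1.95 ± 0.22 SE, n = 6 against 6, adjusted p = 8.66e-07). On the 3 T0 arrays this clone lay at 6.69 to 6.86, far below all the cultured explants. Next was tcbk0045.m.11, at 7.42 to 8.75 in Ctrl and 9.96 to 10.36 in Tri, which is a 3.70-fold rise (log2 difference 1.89 ± 0.18 SE, adjusted p = 3.66e-08). Both calls held in all 24 alternative settings that follow clones by name.

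Of the 23 clones that were higher, 18 had every Tri array above every Ctrl array. Over all clones tested the share was 0.551%, but the 23 were called on these same arrays, so nothing is read from the excess. For 3 of the 23 the Ctrl mean was below the median of the experiment, so that they entered the test through another treatment, Tri or Fsh+Tri. With no filter on level 19 of the 23 passed, out of 8244 clones tested.

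The 2 unnamed clones that were lower rest on less. The clone tcav0005.k.24 ranged from 8.55 to 10.14 in Ctrl and from 7.80 to 8.46 in Tri (log2 difference -0.83 ± 0.20 SE, adjusted p = 0.0442). The clone 1rt124f23_b_c12 ranged from 7.23 to 8.29 in Ctrl and from 6.19 to 7.09 in Tri (log2 difference -0.70 ± 0.17 SE, adjusted p = 0.0445). Both groups of values stayed apart, but the highest Ctrl value was in both cases that of replicate 4. Without it the differences were -0.59 (adjusted p = 0.0833) and -0.54 (adjusted p = 0.123), and both calls were also lost with the stage as a covariate and with the software version as a block, among other settings.

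The effect of trilostane could be set beside the same contrast in explants given Fsh with and without trilostane, which came from the same pool. The means of both contrasts come from different arrays, but in the fit over 24 arrays they share the residual variance and the filter on level. The Ctrl and Tri arrays were therefore also fitted alone, and the Fsh and Fsh+Tri arrays alone with no filter on level. The 15 clones called higher from the 12 Ctrl and Tri arrays were all above 0 in the separate fit of the other 12, where 52.0% of 8247 clones were, and 13 of them passed the threshold there in the same direction, where 0.509% of all did. Of the 15, 12 had a Ctrl mean that reached the experiment's median, and 11 of the 12 passed. The 15 had met the filter on level, whereas the 0.509% is over clones without it. The share over clones that reached the median was not taken in the separate fit.

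In the fit over 24 arrays, 3 of the 23 clones higher in Tri had been tested only because they were high with trilostane. The other 20 reached the experiment's median in Ctrl or in Fsh, a split made after seeing the data. All 20 were above 0 in Fsh+Tri minus Fsh, against 55.7% of the 4335 clones that met that condition. Of the 20, 17 passed the threshold there in the same direction (0.900% of the 4335), and 19 had every Fsh+Tri array above every Fsh array (1.29%). Their differences with Fsh ranged from 0.14 to 2.55, with a median of 1.04. With the 3 others included the counts were 23, 19 and 21 of 23, where 56.9%, 0.991% and 1.41% of all clones tested passed.

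Somatolactin was 7.86 to 8.29 in Fsh and 9.66 to 10.09 in Fsh+Tri (log2 difference 1.77 ± 0.12 SE, adjusted p = 7.00e-12), and *pgd* was 9.78 to 10.39 in Fsh and 10.87 to 11.43 in Fsh+Tri (log2 difference 1.02 ± 0.18 SE, adjusted p = 0.000696). Of the 3 clones that were lower, 1 was below 0 with Fsh too, where 43.1% of all clones tested were, and it passed the threshold, as did 0.463% of all. With Fsh *slc26a4* fell by 3.89 on the log2 scale (± 0.22 SE, adjusted p = 7.99e-14), whereas tcav0005.k.24 differed by 0.03 (adjusted p = 0.981) and 1rt124f23_b_c12 by 0.17 (adjusted p = 0.806).

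**Figure D3:**
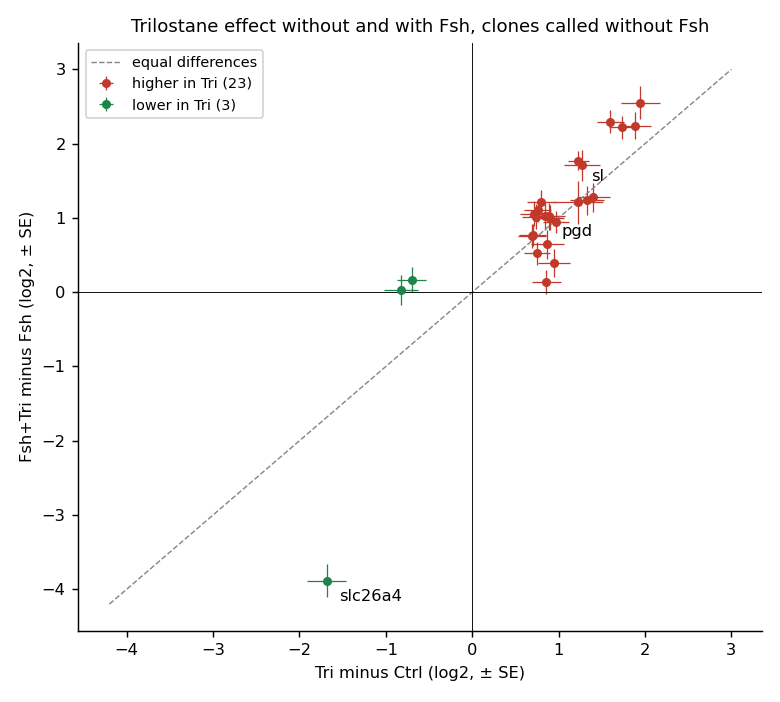
Difference between Fsh+Tri and Fsh (log2 ± SE, vertical) against that between Tri and Ctrl (log2 ± SE, horizontal) for the 26 clones called in Tri minus Ctrl. The means on the 2 axes come from different arrays, the SE on both comes from a variance shared over the 24 arrays, and the clones were chosen by the adjusted p on the horizontal axis. All 23 clones higher in Tri lie above 0 on the vertical axis, and of the 3 that were lower only *slc26a4* lies below it.

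The difference between both effects was tested in the same fit, as the trilostane effect with Fsh minus that without. None of the 23 clones that were higher passed the threshold (limma with Benjamini-Hochberg adjustment), and 5 of them had an unadjusted p under 0.05, as did 7.89% of all clones tested. For somatolactin the difference of effects was 0.54 ± 0.18 SE (adjusted p = 0.518) and for *pgd* 0.13 ± 0.26 SE (adjusted p = 0.919). Over all clones tested 3 passed, 0.0661%, all of them named. The study chose the named clones for a response to Fsh on these same arrays. That choice favours a difference of effects, so nothing is read from all 3 having a name. The 3 clones are *slc26a4*, with -2.20 ± 0.32 SE (adjusted p = 0.000222), *vt1*, the precursor of the neurohypophysial hormone vasotocin, with -2.47 ± 0.21 SE (adjusted p = 6.10e-09), and *apo14*, a 14 kDa apolipoprotein of fish, with -0.99 ± 0.19 SE (adjusted p = 0.0195). Without Fsh the last pair gave no call in Tri. *vt1* lay at 5.89 to 6.25 in Ctrl and 5.58 to 6.04 in Tri, and its difference of -0.16 had a 95% interval from -0.47 to 0.15. Both ranges lay below the median of the experiment, and whether a fall of *vt1* from that level could be measured was not tested. *apo14* lay at 6.41 to 7.05 and 6.59 to 7.11, with a difference of -0.07 and an interval from -0.34 to 0.21. The means in Fsh and Fsh+Tri were 9.12 and 6.49 for *vt1*, and 7.94 and 6.88 for *apo14*. For *slc26a4* they were 9.50 and 5.62, and its mean with trilostane was below the experiment's median with and without Fsh.

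The transcript of the target enzyme itself, *hsd3b1*, gave no call. Its log2 value ranged from 6.49 to 7.18 in Ctrl with a median of 7.06, and from 6.76 to 7.38 in Tri with a median of 7.13. The groups overlapped, and the difference of 0.14 ± 0.14 SE (adjusted p = 0.817) had a 95% interval from -0.15 to 0.43, so that a rise of over 1.5-fold lies outside it. Before culture *hsd3b1* was higher than in both groups, at 8.56 to 9.25. Without Ctrl replicate 4 the difference was 0.047. The reference gene *rps15*, a protein of the small ribosomal subunit, differed by 0.06 ± 0.14 SE (adjusted p = 0.933), with values of 10.61 to 11.41 in Ctrl and 10.74 to 11.48 in Tri.

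Among the named clones, 99 did not pass the threshold and 3 did. Of all of them, 58 were above and 44 below 0, with a median of 0.04 against -0.02 over all clones tested, and 15 were higher and 11 lower at an unadjusted p under 0.05. Of all clones tested, 46.3% were above and 53.7% below 0, and 4.60% were higher and 4.76% lower at that p. Because the study picked these clones on arrays that include Ctrl and Tri, their counts are no independent evidence of a direction.

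The named clone nearest to the threshold was *mmp19*, a matrix metalloproteinase that cleaves basement membrane proteins. Its log2 value ranged from 6.72 to 7.91 in Ctrl with a median of 7.45, and from 6.36 to 6.92 in Tri with a median of 6.57. The ranges overlapped at their ends. The difference was -0.71 ± 0.18 SE (adjusted p = 0.0520), and it passed the threshold in 6 of 26 alternative settings, with an adjusted p of 0.0108 to 0.256 over all of them. With Fsh present the same clone fell by 1.27 on the log2 scale (± 0.18 SE, adjusted p = 1.80e-05), among the lower clones at an unadjusted p under 0.05 in that contrast (3.66% of all clones tested).

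Of the other named clones with the largest changes downward, *e2f4*, a transcription factor of the retinoblastoma pathway that restrains cell cycle genes, was the only named clone short of the threshold whose groups did not overlap. It lay at 6.69 to 7.63 in Ctrl and at 6.29 to 6.63 in Tri (log2 difference -0.56 ± 0.15 SE, adjusted p = 0.0819). Over all clones tested, every Tri array lay below every Ctrl array for 0.220% and above for 0.551%. Because *e2f4* was picked for its change on these same arrays, nothing is read from this. *krt12(1)*, the first of 2 clones of a keratin, an intermediate filament protein of epithelia, differed by -0.59 ± 0.18 SE (adjusted p = 0.185), with both group means below the median of the experiment. *psma4*, a subunit of the proteasome core, differed by -0.58 ± 0.16 SE (adjusted p = 0.126). *cldn11*, the claudin of the tight junctions between Sertoli cells, ranged from 8.52 to 9.77 in Ctrl and from 8.31 to 9.20 in Tri (log2 difference -0.52 ± 0.17 SE, adjusted p = 0.216). Its lowest Ctrl value was that of replicate 4, and without that array the difference of *cldn11* was -0.68 (adjusted p = 0.0167).

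The 5 named clones with the largest upward changes that missed the threshold all overlapped between groups, and each moved toward 0 when Ctrl replicate 4 was left out. *mhc2a*, the alpha chain of MHC class II, which presents antigen on immune cells, was 5.11 to 7.27 in Ctrl and 6.90 to 7.35 in Tri (log2 difference 0.66 ± 0.23 SE, adjusted p = 0.275, and 0.39 without that array). *amh*, the Sertoli cell hormone that restrains spermatogonia, was 6.94 to 8.80 in Ctrl and 8.31 to 8.94 in Tri (log2 difference 0.61 ± 0.21 SE, adjusted p = 0.258, and 0.37 without that array). *amh* was far higher before culture, at 11.26 to 11.83. On the scanner intensities normalized afresh, *amh* passed the threshold, with 0.78 after quantile normalization (adjusted p = 0.0426) and 0.83 after centring on the median (adjusted p = 0.0417). Unlike the deposited values, these intensities were not corrected for the amount of spotted cDNA, and Ctrl replicate 4 was included. The remaining clones were *cbs*, cystathionine beta-synthase of the transsulphuration pathway (0.54, adjusted p = 0.242), *mdka*, a heparin-binding growth factor (0.49, adjusted p = 0.407), and *inhba*, the beta A subunit of activin and inhibin (0.49, adjusted p = 0.388, and 0.28 without Ctrl replicate 4).

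**Figure D4:**
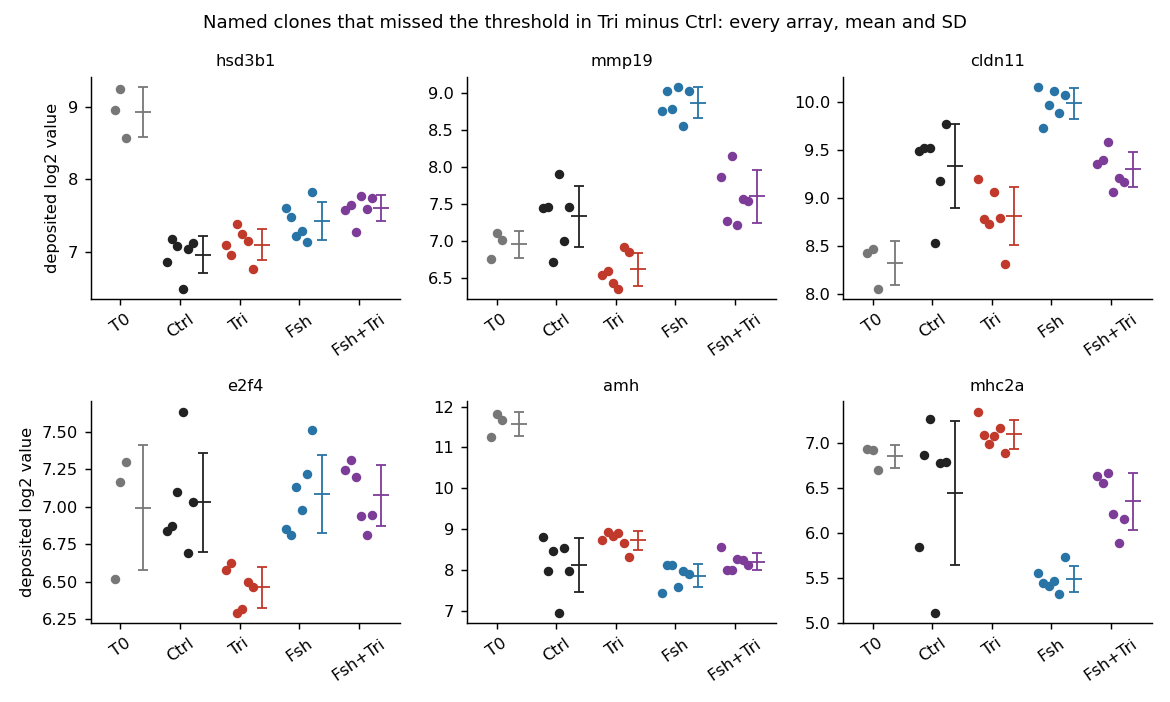
Deposited log2 value (vertical) on every array of T0 (3 arrays) and of Ctrl, Tri, Fsh and Fsh+Tri (6 arrays each) for *hsd3b1* and for 5 named clones that missed the threshold in Tri minus Ctrl, with the mean and SD of each group. Ctrl and Tri overlap in every panel except that of *e2f4*, where the Tri arrays lie at 6.29 to 6.63 and the Ctrl arrays at 6.69 to 7.63.

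Steroid and sterol genes were described as a list of 6 named clones, of which 0 passed the threshold and 2 were higher at an unadjusted p under 0.05. Of all clones tested, 0.573% passed the threshold in either direction and 4.60% were higher at that unadjusted p. The median of the list was 0.13 against -0.02 over all clones tested. *abca1*, the exporter of cholesterol from cells, ranged from 6.51 to 7.13 in Ctrl and from 6.95 to 7.48 in Tri (log2 difference 0.38 ± 0.12 SE, adjusted p = 0.207). In the list of sugar and NADPH genes *pgd* was the only call among 4 clones, and in that of peptide hormones *sl* was the only call among 4. *slc26a4* was the only call among 8 transporters and channels. *rhag*, the ammonia channel of red blood cells and their precursors, ranged in that list from 6.15 to 6.53 in Ctrl and from 6.51 to 6.83 in Tri (log2 difference 0.37 ± 0.15 SE, adjusted p = 0.401).

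The 6 clones of keratins, junctions and the cell cortex all lay below 0, with a median of -0.41, but 0 passed the threshold and 3 were lower at an unadjusted p under 0.05. Of all clones tested, 53.7% lay below 0 and 4.76% were lower at that p. The 6 include both keratin 12 clones, and *krt12(2)* ranged from 8.24 to 9.68 in Ctrl and from 7.97 to 8.51 in Tri (log2 difference -0.52 ± 0.18 SE, adjusted p = 0.266). Ctrl replicate 4 held the highest value, and without it the difference was -0.32. The 4 clones of antigen presentation all lay above 0 (46.3% of all clones tested), with a median of 0.39, and 0 passed, with 2 higher at an unadjusted p under 0.05 (4.60% of all). Of these, *onmy-uba(1)*, an MHC class I heavy chain, differed by 0.47 ± 0.20 SE (adjusted p = 0.450) and by 0.25 without Ctrl replicate 4, and *mhc2dab*, of MHC class II, by 0.32 ± 0.18 SE (adjusted p = 0.595) and by 0.17 without that array. The 3 clones of inhibin, activin and Amh lay above 0 with a median of 0.49, and 0 passed, with 2 higher at an unadjusted p under 0.05, against the same shares of all clones. Among them *inha*, the inhibin alpha subunit of Sertoli cells, ranged from 7.98 to 10.51 in Ctrl and from 9.54 to 10.40 in Tri, a difference of 0.10 ± 0.27 SE (adjusted p = 0.945) that became -0.28 without Ctrl replicate 4. The other 10 of the 17 lists had medians of -0.31 to 0.22 and no call.

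**Figure D5:**
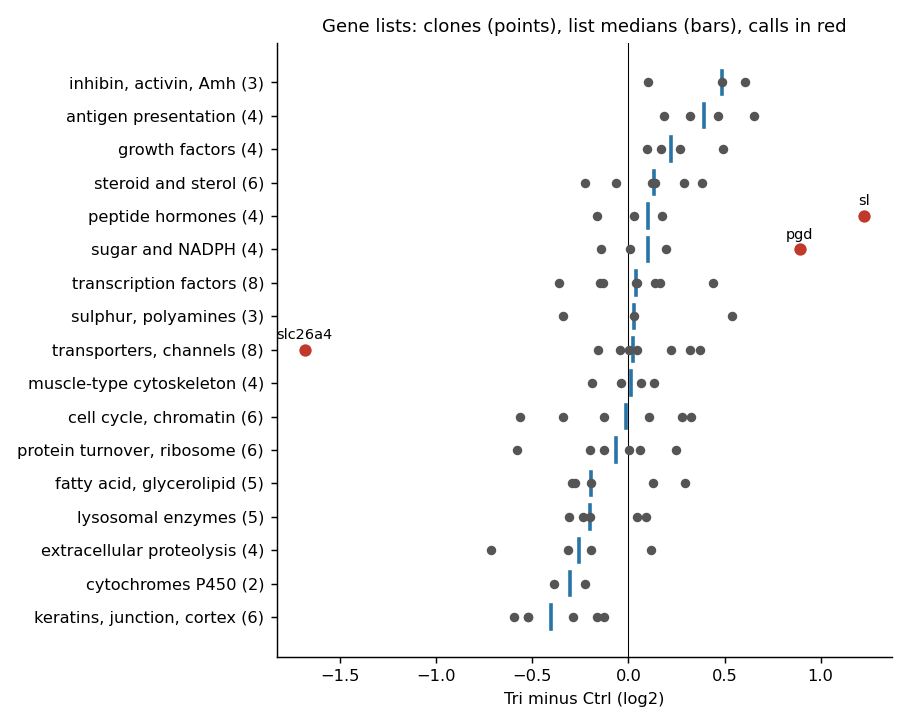
Difference between Tri and Ctrl (log2, horizontal) for the named clones of 17 gene lists, 1 row a list with its number of clones, with the median of each list as a blue bar and the clones past the threshold in red. *sl*, *pgd* and *slc26a4* are the 3 calls, and each lies far from the other members of its list.

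The study sorted its clones into 5 clusters by their profile over the same arrays, so the cluster counts and medians are a description. Of all clones tested, 53.7% were below 0 and 4.76% were lower at an unadjusted p under 0.05. Cluster 3, of 6 clones, had a median of -0.46, with 5 of 6 lower at an unadjusted p under 0.05 and 0 past the threshold. The transcription factor *krab-znf* of that cluster differed by -0.40 ± 0.15 SE (adjusted p = 0.349). Cluster 4, of 6 clones, had a median of 0.43, with 4 higher at an unadjusted p under 0.05 (4.60% of all clones tested). It holds 2 of the clones called higher, *sl* and *pgd* (0.507% of all were called higher), and 1 of its clones lay below 0. That clone is *slc30a1*, a zinc exporter of the cell membrane, with 8.24 to 9.02 in Ctrl and 8.19 to 8.91 in Tri (log2 difference -0.16 ± 0.15 SE, adjusted p = 0.799). Cluster 1, of 40 clones, had a median of -0.16, with 29 below 0, 5 lower at an unadjusted p under 0.05 and *slc26a4* as its call. In that cluster *cebpd1*, a CCAAT/enhancer-binding protein, differed by -0.36 ± 0.15 SE (adjusted p = 0.401), and *cth*, cystathionase, by -0.34 ± 0.17 SE (adjusted p = 0.534), which became -0.52 (adjusted p = 0.0927) without Ctrl replicate 4. Cluster 2, of 30 clones, had a median of 0.21, with 27 above 0 and 6 higher at an unadjusted p under 0.05. Cluster 5, of 19 clones, had a median of 0.14, with 14 above 0 and 5 higher at that p. In both clusters 0 clones were lower at that p and 0 passed the threshold. Of all clones tested, 46.3% were above 0.

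Markers of cell types were summed on the linear scale and brought back to log2, and in every list the Tri and Ctrl arrays overlapped. The 4 Sertoli cell markers summed to 9.70 to 11.40 in Ctrl and 10.54 to 11.20 in Tri. Their own differences went both ways, with 0.61 for *amh*, 0.10 for *inha*, -0.52 for *cldn11* and -0.15 for *dmrt1*. The 3 markers picked for dividing germ cells, *ccne1*, *cenpa* and *mcm7*, summed to 10.27 to 11.41 in Ctrl and 10.61 to 11.07 in Tri. That sum is mainly *ccne1*, with a Ctrl mean of 10.59 against 7.95 and 7.46. The paper gives *ccne1* a somatic profile in the testis, so the sum is no reading of germ cells. The 3 markers of antigen-presenting cells summed to 8.88 to 10.22 in Ctrl and 9.74 to 10.22 in Tri, and those of epithelium to 10.30 to 10.72 and 9.67 to 10.53. All 4 Sertoli cell markers had a mean above the median of the experiment in both groups. The part of cell composition in the differences above was not tested.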

How the data were processed

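The 27 arrays were measured by the study from testis RNA, labelled with 33P. The authors divided spot signals by that of a vector oligonucleotide, took log2 and quantile normalized all arrays, and the deposited log2 values were used. Spot intensity was deposited by the authors as the scanner gave it and served for alternatives, with a floor of 1 before log2 and no division by the vector signal. Water and vector rows (192) were left out. The authors dropped clones with too little spotted cDNA, and here a clone needed a value on 80% or more of the cultured arrays instead. The model held 1 mean per treatment (4 treatments) by lmFit and eBayes of limma 3.58.1, run under R 4.3.3, with Benjamini-Hochberg adjustment and a threshold of 0.05. Figures used matplotlib 3.10.9. The fit was tested on simulated data. No column of sample values was left unused (0). The number of arrays sets the precision. Same-numbered Ctrl and Tri arrays did not deviate together (r from -0.35 to 0.06), so the numbers do not pair them.

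Named in the text are *hsd3b1* and *rps15*, every named clone past the threshold, the 5 largest changes in each direction that missed it, up to 4 members a list, named clones past the threshold in the difference of effects, and the 2 largest unnamed changes in each direction. Members, lists and rules were chosen with earlier results of these data known. The spot number of the named clones was checked against the deposited values (median r of 0.94 across arrays, lowest 0.56), which is how the scanner intensity of a clone was found. Alternatives covered samples, blocks, covariates, filters, normalization, weights, thresholds and leaving out each Ctrl and Tri array. No genome coordinates or clone sequences were used here.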

Additional observations from a re-analysis of the deposited data

Results flagged for a closer look

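On 9 occasions among 64 groups of 6 arrays, 1 array lay apart from the rest of its group. Among independent groups chance flags about 1 in 20. The groups here are of 32 clones on the same arrays, several picked for their difference there, so that rate does not apply. Of these, 7 were Ctrl replicate 4, with a log2 value of 8.73 for *pgd* (the next was 9.47), 9.68 for *krt12(2)* (8.62), 7.07 for *onmy-uba(1)* (8.20), 7.98 for *inha* (10.03), 6.31 for *cth* (7.23), 10.14 for tcav0005.k.24 (9.02) and 8.29 for 1rt124f23_b_c12 (7.43). The others were *apo14*, at 6.41 in Ctrl replicate 3 and at 7.11 in Tri replicate 6.

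The effect of trilostane differed with and without Fsh for 3 named clones by limma's test of the difference of effects, *slc26a4* with -2.20, *vt1* with -2.47 and *apo14* with -0.99. The mean of *slc26a4* was 5.59 in Tri and 5.62 in Fsh+Tri, against 7.27 in Ctrl and 9.50 in Fsh. That of *vt1* was 6.06 in Ctrl and 9.12 in Fsh. Whether the larger falls with Fsh reflect the higher levels in Fsh was not tested.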

How the results depend on the processing

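Of the clones higher in Tri, 23 in number, the count was 15 with only the Ctrl and Tri arrays, 13 with only stage I-II arrays, 11 with only the older image software and 15 at an adjusted p under 0.01, and within 1.5 times of 23 in the other 24 settings. These 4 settings recalled 15, 12, 11 and 15 of the 23. Of the 3 clones that were lower, 1 was left with only the Ctrl and Tri arrays, with only stage I-II arrays, with the software version as a block, with the older software only, with no filter on level, with scanner intensity centred on the median and at an adjusted p under 0.01, and array weights gave 5. The difference of effects gave 1 clone with only stage I-II arrays. Leaving out each array gave 17 to 28 clones higher, 1 to 6 lower, 3 to 5 in the difference of effects, 3 to 5 named clones, and 18 to 28 clones of equal direction with Fsh, 24 of 26 in the full fit. Counts of lower clones were 5 without Ctrl replicate 1, 6 without Ctrl replicate 3, and 1 without Ctrl replicate 6, Tri replicate 1 or Tri replicate 6. Without Ctrl replicate 3 the difference of effects gave 5 clones, and without Ctrl replicate 5 there were 5 named calls. With the replicate block 20 clones were higher and 3 lower, 20 and 2 of them from the full fit, and 4 passed in the difference of effects. The sign of *rps15* turned without Ctrl replicate 1 (-0.021) and without Tri replicate 2 (-0.020), in a range of -0.021 to 0.14 over arrays left out, and that of *inha* without Ctrl replicate 4 (-0.28) and with array weights (-0.15), in a range of -0.28 to 0.22 over arrays left out. *mmp19* passed with the stage as a covariate, with the level filter on Ctrl and Tri, with a trended and robust eBayes, and without Ctrl replicate 3, Ctrl replicate 5 or Tri replicate 5. The causes were not tested.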

Other observations

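Clone names that begin with tcbk made up 11 of the 23 clones higher in Tri and 20.1% of all clones tested. What the prefix stands for is not given in the sources used here. The median SD over clones was 0.30 between Ctrl arrays and 0.24 between Tri arrays, and 0.25 between Ctrl arrays without replicate 4. Between Fsh and Ctrl, which share the Ctrl arrays with the comparison above, *sl* was lower with Fsh, at 7.86 to 8.29 against 8.38 to 8.96 (log2 difference -0.55, adjusted p = 0.0112), and *slc26a4* was higher, at 9.11 to 9.75 against 6.83 to 8.11 (log2 difference 2.23, adjusted p = 1.12e-07).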
